A study of Mus musculus with 15 samples.

Results

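The genes described here are the collagens and a set of matrix and fibroblast genes measured in mouse forebrain. A gene was a member if a probe set carried its symbol alone and the symbol was that of a collagen chain, or was Lum, Dcn, Bgn, Fn1, Sparc, Postn, Fbn1, Fbln1, Lox, Ogn, Fmod, Aldh1a2, Slc6a13 or Pdgfra. Each gene was represented by its brightest probe set. The rule found 55 genes, 42 collagens and 13 others, among 18193 genes on the array with a single symbol. It named genes by symbol and not by a measured difference, but it was written with earlier results of these data known. Shares of members that changed are therefore descriptions, not independent evidence about the set. Of the 55 members 43 were bright enough to be tested. The other 12 were Col2a1, Col4a3, Col4a4, Col6a4, Col6a5, Col8a2, Col9a2, Col10a1, Col11a2, Col17a1, Col20a1 and Col24a1, with mean values between 4.37 and 5.42 on the log2 scale used throughout. No probe set carried the symbol Fbn1 alone, so that gene was not analysed here.

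Collagens are secreted proteins whose chains wind around each other into a helix and assemble into fibrils, networks or filaments outside the cell. The brain parenchyma holds little fibrillar collagen, which lies mainly in the meninges and around larger vessels, where fibroblasts make it. Type IV collagen forms the basement membrane around brain vessels and under the surface of the brain. Small leucine-rich proteoglycans such as decorin and lumican bind collagen fibrils, fibronectin links the matrix to cells, and lysyl oxidase cross-links collagen chains.

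The RNA was total RNA of forebrain, hybridised to Affymetrix mouse genome arrays in 3 groups of 5. VEH-Sham 1 to 5 received vehicle and a sham operation, VEH-HI 6 to 10 received vehicle and hypoxic ischemia, and EPO-HI 11 to 15 received erythropoietin and hypoxic ischemia. Erythropoietin, the hormone of red cell formation, was injected intraperitoneally at 5 U per g, and all injections preceded the procedure by 1 h. No group received erythropoietin with a sham operation, and the sources used here do not give strain, age, sex or the interval from injury to sampling. The labels do not say that samples are separate animals, so the p-values cover only the spread among these samples, and that spread may be technical. In RNA of whole tissue, fewer cells of a type and less RNA per cell cannot be told apart.

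The arrays were not alike before any gene was compared. The median intensity of VEH-Sham 1 to 4, called array set A, was 55.3 to 57.9. That of the remaining arrays, VEH-Sham 5 with all 10 hypoxic ischemia arrays and called set B, was 39.2 to 44.4. Arrays correlated at 0.927 to 0.954 between the sets, against at least 0.962 within them, and the Gapdh ratio of 3' to 5' signal ran from 0.634 to 0.719 in set A, against 0.716 to 0.756 for set B. VEH-Sham 5 is thus the only sham array in the set that holds the injured samples. A gene's difference from VEH-Sham is therefore given with its difference from VEH-Sham 5 alone, which rests on a single sham array and has no test. All 10 forebrain neuron markers with a single-symbol probe set were bright enough to be tested. So were 13168 of all 18193 single-symbol genes and 8 of 9 choroid plexus markers, so this cannot check the labelled tissue.

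Promoter sequence from RefSeq (GRCm38.p6) was at hand for 42 of the 55 members, in 49 windows of 300 bases (250 before and 50 after a transcription start). The following sequences are the 250 bases before the start of 3 genes on the forward strand, shown because Col3a1 and Aldh1a2 were among the members that rose after injury and Col1a2, a chain of type I collagen, was not. Capitals mark matches to the TATA box, searched as TATAAA, the CCAAT motif, and the core of the hypoxia response element, searched as ACGTG, each on either strand and some of them in reverse complement. In Aldh1a2 the hypoxia response core and the CCAAT motif stand side by side within the capitals.
Col3a1, chr1:45311288-45311537: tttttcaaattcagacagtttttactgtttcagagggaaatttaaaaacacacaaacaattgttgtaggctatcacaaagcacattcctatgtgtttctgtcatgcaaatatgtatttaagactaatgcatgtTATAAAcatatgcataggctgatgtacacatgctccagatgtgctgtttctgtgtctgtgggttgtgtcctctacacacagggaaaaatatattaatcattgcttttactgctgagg
Col1a2, chr6:4505368-4505617: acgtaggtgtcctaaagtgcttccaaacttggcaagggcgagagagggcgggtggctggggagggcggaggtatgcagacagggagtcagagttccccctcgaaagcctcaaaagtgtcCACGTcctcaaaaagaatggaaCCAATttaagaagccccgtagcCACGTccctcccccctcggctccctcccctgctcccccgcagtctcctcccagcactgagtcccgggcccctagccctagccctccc
Aldh1a2, chr9:71215539-71215788: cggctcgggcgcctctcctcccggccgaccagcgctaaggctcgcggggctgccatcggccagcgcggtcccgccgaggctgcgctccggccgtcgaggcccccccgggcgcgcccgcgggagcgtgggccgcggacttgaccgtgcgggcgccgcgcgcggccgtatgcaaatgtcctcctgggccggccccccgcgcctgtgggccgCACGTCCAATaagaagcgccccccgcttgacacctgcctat
The 3 upstream stretches differed in these letters. The Col3a1 stretch held a TATAAA and neither of the other motifs, whereas Col1a2 and Aldh1a2 held CCAAT and ACGTG and no TATAAA. Over all 49 member windows TATAAA was found in 14.3% (13.6% of all 32851 windows of this length), CCAAT in 36.7% (37.4%) and ACGTG in 16.3% (19.6%). GGGCGG, the GC box, was found in 51% of member windows and 35.7% of all windows. TGANTCA, the AP-1 site, was found in 2.04% and 7.81%, and TTCNNNGAA, a STAT site, in 2.04% and 8.3%. These are matches of letters, not measured binding.

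Type IV collagen chains are encoded by genes arranged head to head. The annotated starts of Col4a1, on the reverse strand, and Col4a2, on the forward strand, lie 21 bases apart on chromosome 8, so that both transcripts cover the same 22 bases. That stretch is shown because Col4a1 passed the test after injury and Col4a2 did not. The difference between both genes was not tested.
Col4a1 and Col4a2 shared start, chr8:11312805-11312826, forward strand: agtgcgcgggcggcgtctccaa
The starts of Col4a5 and Col4a6 lie 1343 bases apart, also on opposite strands.

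Setting VEH-HI against VEH-Sham shows how these genes differed after hypoxic ischemia without erythropoietin. Fibronectin, type IV collagen chain Col4a1, the fibrillar chains Col5a2 and Col3a1, and Aldh1a2, a retinoic acid-synthesising enzyme of meningeal fibroblasts, were 1.73 to 2.26 times as high as in VEH-Sham, on the scale of intensity + 16, which understates changes of dim genes. In all, 9 of the 43 tested members rose (20.9%, against 11.9% of all 13168 genes tested) and 4 fell (9.3%, against 11.5%) by limma with a Benjamini-Hochberg adjusted p under 0.05. The other 30 did not pass. The share that fell was near that of all genes and says nothing particular about the members. At an unadjusted limma p under 0.05 there were 12 members higher (27.9%, against 18.5%) and 6 lower (14%, against 19.7%). Differences were above 0 for 26 members (60.5%, against 47.3%) and below 0 for 17 (39.5%, against 52.7%). The median log2 difference over the 43 members was 0.079, against -0.020 over all genes tested, and from VEH-Sham 5 it was 0.21, against 0.0026. When each array was instead set to the same median intensity, the median of all tested probe sets moved from -0.061 to 0.18, and 17 members rose (39.5%, against 29.1% of all genes) and 0 fell (against 3.28%). Under quantile normalization 12 members rose (27.9%, against 12.5%) and 2 fell (4.65%, against 9.88%). Beyond the brightest probe set of each member, 34 further ones were tested, of which 3 rose (8.82%, against 9.85% of all 27022 probe sets) and 5 fell (14.7%, against 13%), which is near the background in both directions. With the array set as a block 0 members passed in either direction, against 0.00759% of all genes higher and 0% lower. The number that fell was 1 without VEH-Sham 3, VEH-Sham 4 or VEH-HI 10, 2 without VEH-Sham 2 or VEH-HI 6, and 8 without VEH-Sham 5. Shares of all genes were not computed with an array left out, so these counts describe the calls alone.

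Fn1, which encodes fibronectin, had the smallest p of the members. Its log2(intensity + 16) was 8.08, 7.79, 7.74 and 7.80 in VEH-Sham 1 to 4, 8.24 in VEH-Sham 5, 9.60, 9.18, 9.21, 8.69 and 8.86 in VEH-HI 6 to 10, and 9.28, 8.60, 8.78, 8.64 and 8.91 in EPO-HI 11 to 15. Every VEH-HI and EPO-HI array was above every sham array. The rise after hypoxic ischemia was 1.18 (SE 0.16, limma adjusted p = 0.000154, n = 5 per group), a 2.26-fold change, and the difference from VEH-Sham 5 was 0.86. A dimmer Fn1 probe set differed by 0.22 (limma adjusted p = 0.527).

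Sparc and Lox, further matrix proteins of this role, also rose, whereas Fbln1 and Postn did not pass. Sparc, a collagen-binding glycoprotein of vessels and glia, was at 10.33, 10.31, 10.15 and 10.02 in VEH-Sham 1 to 4, 10.36 in VEH-Sham 5, 11.13, 10.78, 10.68, 10.51 and 10.46 in VEH-HI 6 to 10, and 10.66, 10.66, 10.34, 10.52 and 10.56 in EPO-HI 11 to 15. All VEH-HI arrays lay above all sham arrays, although the gap between VEH-Sham 5 and VEH-HI 10 was small. Sparc rose by 0.48 (SE 0.11, limma adjusted p = 0.00598). The Sparc difference from VEH-Sham 5 alone was 0.35. The call was lost when its tested probe sets were averaged (0.16), where a second probe set rose by 0.39 (0.099 from VEH-Sham 5) and another differed by -0.37 (-0.12). Lox, the collagen cross-linking enzyme, was at 5.98, 6.01, 6.26 and 5.83 in VEH-Sham 1 to 4, 5.87 in VEH-Sham 5, 6.92, 6.71, 6.41, 6.10 and 6.27 in VEH-HI 6 to 10, and 6.50, 6.31, 6.41, 6.12 and 6.24 in EPO-HI 11 to 15. Every VEH-HI array except VEH-HI 9 was above the highest sham array, VEH-Sham 3. Lox rose by 0.49 (SE 0.16, limma adjusted p = 0.0323). The Lox difference from VEH-Sham 5 alone was 0.61. This call was lost without VEH-Sham 1, VEH-Sham 2, VEH-Sham 4, VEH-HI 6 or VEH-HI 7, where the limma adjusted p was 0.0549 to 0.0992, and without a filter on dim probe sets or with the arrays of the compared groups only. The brightest probe set of Fbln1, which encodes the elastic-fibre protein fibulin-1, differed by -0.073 (0.043 from VEH-Sham 5, limma adjusted p = 0.676), while a second rose by 0.50 (0.32) and another fell by 0.60 (-0.31), so no direction is given for this gene.

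**Figure D1:**
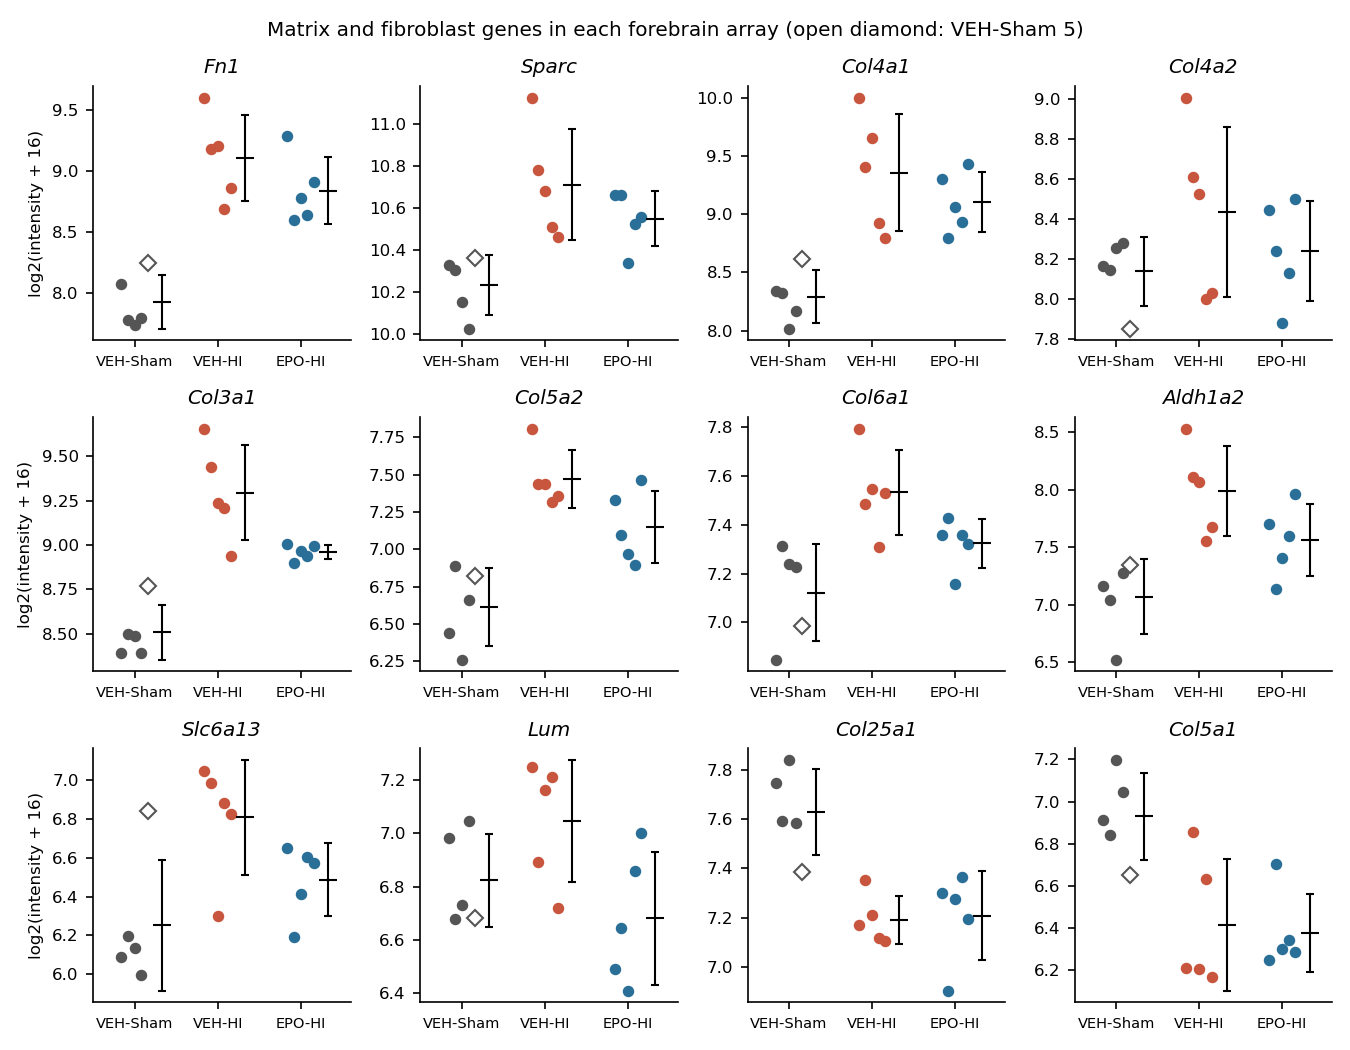
log2(intensity + 16) of 12 member genes in each array of the 3 groups (grey, VEH-Sham; red, VEH-HI; blue, EPO-HI), with the group mean and SD beside the points (n = 5 each) and VEH-Sham 5 as an open diamond. Axes do not start at 0. Fn1, Col4a1, Col3a1 and Col5a2 were higher in every injured array than in every sham array, whereas the VEH-Sham 5 value of Slc6a13, 6.84, lay within the VEH-HI points.

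Of the 8 fibrillar collagens tested, 2 rose, 1 fell and 5 did not pass. Col3a1, the chain of type III collagen found with type I in vessel walls and meninges, was at 8.39, 8.50, 8.49 and 8.39 in VEH-Sham 1 to 4, 8.77 in VEH-Sham 5, 9.66, 9.44, 9.24, 9.21 and 8.94 in VEH-HI 6 to 10, and 9.00, 8.90, 8.97, 8.94 and 8.99 in EPO-HI 11 to 15. The injured arrays were all above the sham arrays, and VEH-Sham 5 was the highest sham array. Col3a1 rose by 0.79 (SE 0.11, limma adjusted p = 0.000311, 1.73-fold). The Col3a1 difference from VEH-Sham 5 alone was 0.53. A dimmer Col3a1 probe set differed by 0.27 (0.081 from VEH-Sham 5, limma adjusted p = 0.153). The type V collagens regulate the diameter of fibrils, and their chains differed in direction. Col5a2 was at 6.44, 6.89, 6.26 and 6.66 in VEH-Sham 1 to 4, 6.82 in VEH-Sham 5, 7.81, 7.44, 7.44, 7.32 and 7.36 in VEH-HI 6 to 10, and 7.33, 7.09, 6.97, 6.89 and 7.46 in EPO-HI 11 to 15, with all VEH-HI arrays above all sham arrays. It rose by 0.86 (SE 0.15, limma adjusted p = 0.00102). The Col5a2 difference from VEH-Sham 5 alone was 0.65.

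Col5a1 moved the other way. Its values were 6.91, 6.84, 7.20 and 7.04 in VEH-Sham 1 to 4, 6.65 in VEH-Sham 5, 6.21, 6.86, 6.21, 6.63 and 6.17 in VEH-HI 6 to 10, and 6.25, 6.70, 6.30, 6.34 and 6.29 in EPO-HI 11 to 15. VEH-HI 7 overlapped the sham arrays, and VEH-Sham 5 was the lowest of them. Col5a1 fell by 0.51 (SE 0.16, limma adjusted p = 0.0234), and the difference from VEH-Sham 5 was -0.24. The fall of Col5a1 was not called without VEH-Sham 3, VEH-Sham 4, VEH-HI 6, VEH-HI 8 or VEH-HI 10 (limma adjusted p 0.0522 to 0.0680), or under quantile normalization, equal array medians or the mean of its probe sets. Dimmer probe sets of Col5a1 and Col5a2 differed by 0.030 and 0.11 and did not pass. The change of Col5a2 minus that of Col5a1 was 1.37, or 0.89 from VEH-Sham 5. Here 4 chain pairs (Col1a1 with Col1a2, Col4a1 with Col4a2, Col5a2 with Col5a1, Col6a1 with Col6a2) were set against each other after their values were seen, so this is a description without a test. The change of Col6a1 minus that of Col6a2 was 0.49 (0.46 from VEH-Sham 5), and that of Col1a1 minus that of Col1a2 was -0.26 (0.46). All 4 pairs use the brightest probe sets, and these values depend on that choice. A second Col6a2 probe set, nearly as bright, differed by 0.28 (0.26 from VEH-Sham 5), and a second Col1a1 probe set by 0.17 (1.23).

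The chains of type I collagen, the main fibrillar collagen of skin and bone, did not pass. Col1a1 differed by -0.013 and Col1a2 by 0.25 (limma adjusted p = 0.965 and 0.23), and both turned sign from VEH-Sham 5, to 0.38 and -0.084. Dimmer probe sets of Col1a1 and Col1a2 differed by 0.17 and 0.37 and did not pass, with 1.23 and 0.15 from VEH-Sham 5. Col11a1 differed by 0.27 (0.21 from VEH-Sham 5), Col5a3 by -0.096 (0.39) and Col27a1 by 0.78 (limma adjusted p = 0.0771). Col27a1, a fibrillar collagen of cartilage, was at 6.67, 6.83, 6.34 and 4.90 in VEH-Sham 1 to 4, 4.70 in VEH-Sham 5, 7.11, 6.65, 6.84, 6.37 and 6.39 in VEH-HI 6 to 10, and 6.30, 6.45, 6.74, 6.41 and 6.66 in EPO-HI 11 to 15. VEH-Sham 4 and VEH-Sham 5 were far below every other array for this probe set. The difference from VEH-Sham 5 was 1.97. A second Col27a1 probe set fell by 0.70 (-0.22 from VEH-Sham 5, limma adjusted p = 0.0402).

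Among the 4 tested chains of type IV collagen, the network of basement membranes, 1 rose and all 4 differences of the brightest probe sets were above 0. Col4a1 was at 8.34, 8.32, 8.02 and 8.16 in VEH-Sham 1 to 4, 8.62 in VEH-Sham 5, 10.00, 9.41, 9.66, 8.93 and 8.79 in VEH-HI 6 to 10, and 9.30, 8.80, 9.06, 8.94 and 9.43 in EPO-HI 11 to 15. The lowest VEH-HI value, in VEH-HI 10, exceeded the highest sham value, in VEH-Sham 5. Col4a1 rose by 1.06 (SE 0.18, limma adjusted p = 0.00109, 2.09-fold). The Col4a1 difference from VEH-Sham 5 alone was 0.74. A dimmer Col4a1 probe set differed by 0.026 (limma adjusted p = 0.906).

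Col4a2, whose product joins that of Col4a1 in the same molecule, was at 8.16, 8.14, 8.25 and 8.28 in VEH-Sham 1 to 4, 7.85 in VEH-Sham 5, 9.01, 8.61, 8.53, 8.00 and 8.03 in VEH-HI 6 to 10, and 8.45, 8.24, 7.88, 8.13 and 8.50 in EPO-HI 11 to 15. VEH-HI 9 and VEH-HI 10 lay among the sham arrays and VEH-HI 6 to 8 above them. The difference was 0.30 (SE 0.16, limma adjusted p = 0.191), and 0.58 from VEH-Sham 5. The change of Col4a1 minus that of Col4a2 was thus 0.77 over the 5 sham arrays and 0.16 from VEH-Sham 5, for neighbours that share the start sequence shown with the promoters. Col4a5 and Col4a6 differed by 0.091 and 0.40 and did not pass (limma adjusted p = 0.674 and 0.24). From VEH-Sham 5 they differed by 0.30 and 0.30, and a second probe set of each was on the other side of 0, at -0.13 and -0.45.

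**Figure D2:**
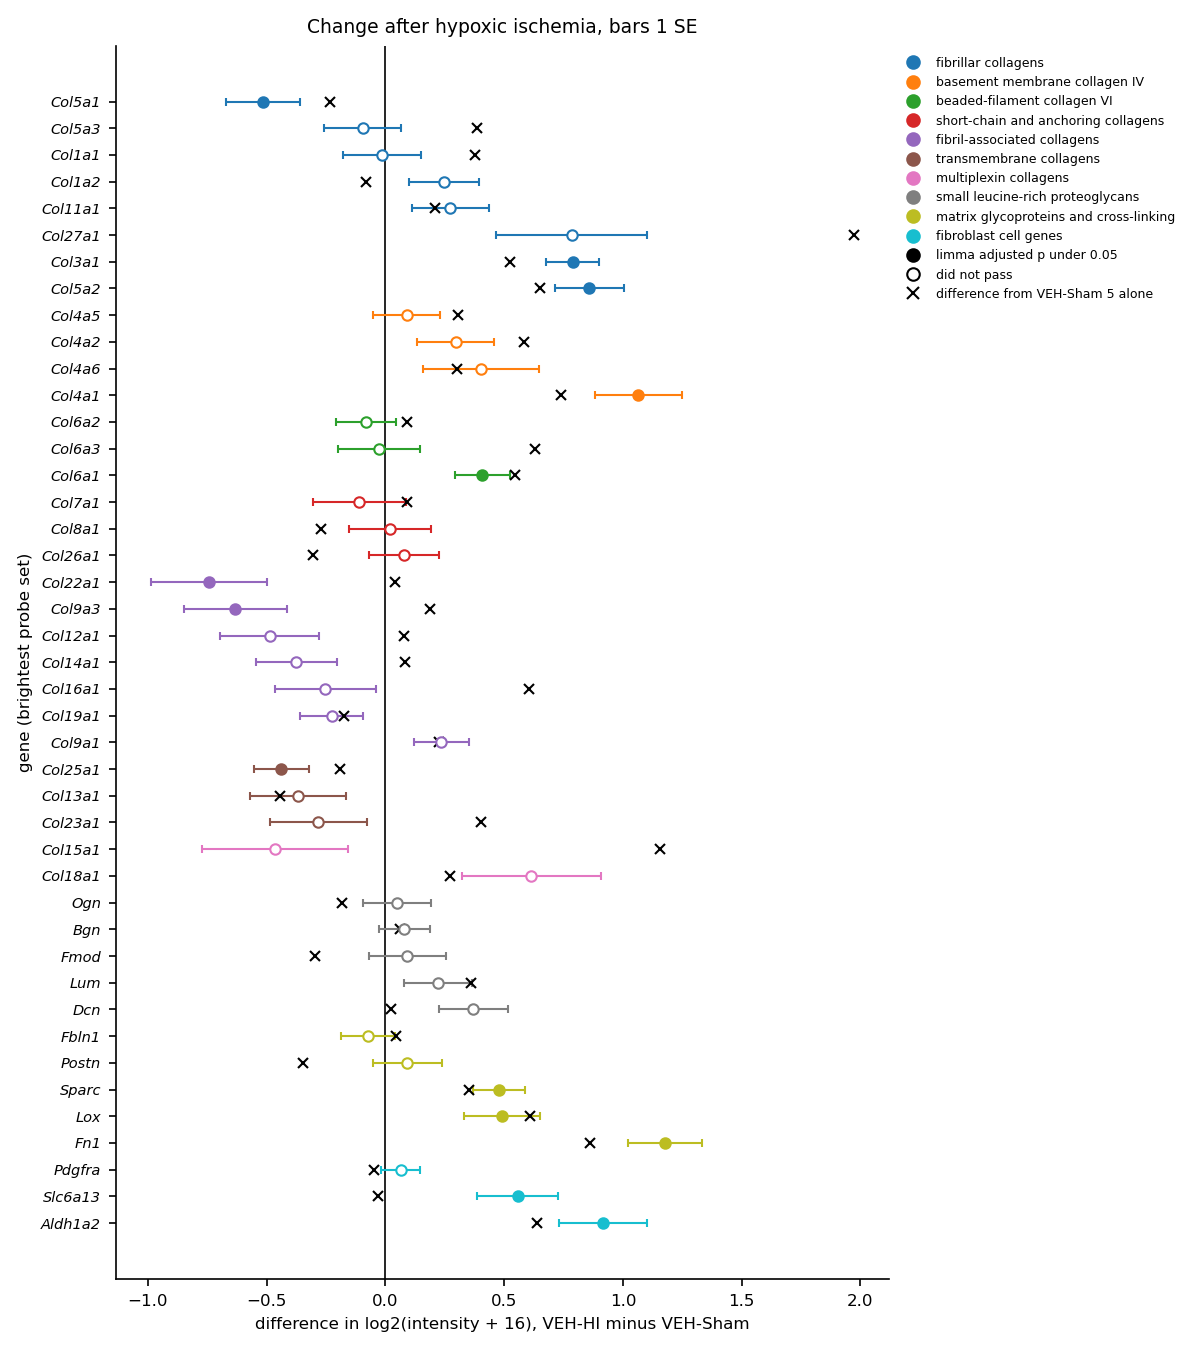
Difference in mean log2(intensity + 16), VEH-HI minus VEH-Sham (n = 5 each), of the 43 tested members by role, with bars of 1 SE. Filled points have limma adjusted p under 0.05, and crosses are the difference of the VEH-HI mean from VEH-Sham 5 alone. For Fn1, Col4a1 and Col3a1 point and cross are both well above 0, while for Col22a1 and Col9a3 they lie on opposite sides.

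Type VI collagen forms beaded filaments around cells from chains encoded by Col6a1, Col6a2 and Col6a3. Of these 3, 1 rose. Col6a1 was at 6.85, 7.31, 7.24 and 7.23 in VEH-Sham 1 to 4, 6.99 in VEH-Sham 5, 7.79, 7.48, 7.54, 7.31 and 7.53 in VEH-HI 6 to 10, and 7.36, 7.43, 7.16, 7.36 and 7.32 in EPO-HI 11 to 15. Only VEH-Sham 2 reached the VEH-HI range, at the level of VEH-HI 9. Col6a1 rose by 0.41 (SE 0.12, limma adjusted p = 0.0181). The Col6a1 difference from VEH-Sham 5 alone was 0.55. The call was lost without VEH-Sham 1 or VEH-HI 6 (limma adjusted p = 0.0563 and 0.0521). Col6a2 was at 7.48, 7.67, 7.64 and 7.59 in VEH-Sham 1 to 4, 7.38 in VEH-Sham 5, 7.77, 7.64, 7.42, 7.37 and 7.16 in VEH-HI 6 to 10, and 7.32, 7.55, 7.58, 7.27 and 7.80 in EPO-HI 11 to 15, and its groups overlapped widely. Its difference was -0.083 and that of Col6a3 -0.026 (limma adjusted p = 0.667 and 0.931). From VEH-Sham 5 both were above 0, at 0.089 and 0.63. A second Col6a2 probe set differed by 0.28 (limma adjusted p = 0.116, 0.26 from VEH-Sham 5), so no direction is given for Col6a2.

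Fibril-associated collagens sit on the surface of fibrils and do not form fibrils themselves. Of the 7 tested, 2 fell, none rose and 6 differences were below 0, but the values of VEH-Sham 5 did not follow those of the other sham arrays. Col22a1, known from tissue junctions, was at 6.57, 6.77, 6.24 and 6.09 in VEH-Sham 1 to 4, 5.44 in VEH-Sham 5, 5.57, 5.31, 5.91, 5.68 and 4.93 in VEH-HI 6 to 10, and 5.48, 5.70, 5.33, 4.93 and 4.92 in EPO-HI 11 to 15. VEH-Sham 5 lay within the VEH-HI range and VEH-Sham 1 to 4 above it. Col22a1 fell by 0.74 (SE 0.24, limma adjusted p = 0.0345), yet the difference from VEH-Sham 5 was 0.04. Leaving out any of VEH-Sham 1 to 4, VEH-HI 6, VEH-HI 7 or VEH-HI 10 ended the call (limma adjusted p 0.0531 to 0.101), as did a pseudocount of 1, no filter on dim probe sets, quantile normalization, equal array medians and the compared groups alone.

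Col9a3, a chain of type IX collagen, showed the same arrangement of sham arrays. It was at 8.42, 8.66, 8.38 and 8.53 in VEH-Sham 1 to 4, 7.47 in VEH-Sham 5, 8.27, 7.98, 7.81, 6.97 and 7.28 in VEH-HI 6 to 10, and 7.29, 7.47, 7.48, 7.55 and 7.77 in EPO-HI 11 to 15. VEH-Sham 1 to 4 were above all injured arrays, and VEH-Sham 5 was not. Col9a3 fell by 0.63 (SE 0.22, limma adjusted p = 0.0408), but its VEH-HI mean differed from VEH-Sham 5 by 0.19. Leaving out VEH-Sham 1, 2, 3 or 4, VEH-HI 9 or VEH-HI 10 ended the call (limma adjusted p 0.0828 to 0.117), as did no filter on dim probe sets, equal array medians, the compared groups alone, a robust variance estimate and the mean of its probe sets. A second probe set differed by 0.59 in the opposite direction (limma adjusted p = 0.242). Col12a1, Col14a1, Col16a1 and Col19a1 differed by -0.49, -0.38, -0.25 and -0.23 and did not pass by their brightest probe sets. Their differences from VEH-Sham 5 were 0.08, 0.082, 0.61 and -0.17. Second probe sets of Col12a1 and Col19a1 fell by 0.77 and 0.63 (limma adjusted p = 0.0493 and 0.00418), or 0.060 and -0.48 from VEH-Sham 5, and both genes were called lower when their probe sets were averaged. Col9a1, the remaining fibril-associated chain, differed by 0.24, or 0.22 from VEH-Sham 5.

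Transmembrane collagens are anchored in the cell membrane, and 1 of the 3 tested fell. Col25a1, the neuronal collagen found in amyloid plaques, was at 7.74, 7.59, 7.84 and 7.58 in VEH-Sham 1 to 4, 7.38 in VEH-Sham 5, 7.17, 7.35, 7.21, 7.12 and 7.10 in VEH-HI 6 to 10, and 7.30, 6.90, 7.28, 7.36 and 7.20 in EPO-HI 11 to 15. All VEH-HI and all EPO-HI arrays were below all sham arrays, and VEH-Sham 5 was the lowest sham array. Col25a1 fell by 0.44 (SE 0.11, limma adjusted p = 0.0115), and the difference from VEH-Sham 5 was -0.19. With equal array medians the fall was -0.19 and not called. A dimmer Col25a1 probe set differed by -0.53 (limma adjusted p = 0.184), but by 0.19 from VEH-Sham 5. Col13a1 and Col23a1 differed by -0.37 and -0.28 and did not pass, with -0.44 and 0.40 from VEH-Sham 5.

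In the multiplexin collagens, basement membrane collagens that carry sugar chains, neither of 2 passed. Col18a1, whose end fragment is endostatin, was at 6.37, 4.43, 6.40 and 6.51 in VEH-Sham 1 to 4, 6.36 in VEH-Sham 5, 6.68, 6.44, 7.04, 6.14 and 6.86 in VEH-HI 6 to 10, and 6.51, 6.27, 6.53, 6.81 and 6.79 in EPO-HI 11 to 15. VEH-Sham 2 was far below every other array. The difference was 0.61 (SE 0.29, limma adjusted p = 0.128), and 0.27 from VEH-Sham 5. Col15a1 differed by -0.46, and by 1.16 from VEH-Sham 5. Of the short-chain and anchoring collagens none of 3 passed. Col26a1 was at 7.02, 7.02, 6.84 and 6.94 in VEH-Sham 1 to 4, 7.43 in VEH-Sham 5, 7.07, 7.26, 6.95, 7.14 and 7.23 in VEH-HI 6 to 10, and 6.60, 7.38, 6.98, 7.28 and 6.82 in EPO-HI 11 to 15, with overlapping groups and a difference of 0.078 (-0.30 from VEH-Sham 5). Col7a1, the anchoring fibril collagen, and Col8a1 differed by -0.11 (0.092) and 0.018 (-0.27), so all 3 turned sign from VEH-Sham 5.

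None of the 5 small leucine-rich proteoglycans passed by its brightest probe set. Those 5 differences were above 0, but those of Fmod and Ogn were below 0 from VEH-Sham 5. Dcn, which encodes decorin, was at 8.17, 8.24, 8.06 and 8.21 in VEH-Sham 1 to 4, 8.60 in VEH-Sham 5, 9.06, 8.17, 8.74, 8.91 and 8.25 in VEH-HI 6 to 10, and 8.35, 8.44, 8.32, 8.28 and 8.50 in EPO-HI 11 to 15. VEH-HI 7 and VEH-HI 10 lay within the sham range. The difference was 0.37 (SE 0.15, limma adjusted p = 0.0704), and 0.022 from VEH-Sham 5. Bgn, Fmod, Lum and Ogn differed by 0.079, 0.093, 0.22 and 0.049, and from VEH-Sham 5 by 0.06, -0.30, 0.36 and -0.18. A second probe set of Bgn, which encodes biglycan, rose by 0.42 (0.54 from VEH-Sham 5, limma adjusted p = 0.0446) and another differed by 0.60 (-0.075), and Bgn was called higher when its probe sets were averaged. All 5 other probe sets of Fmod, which encodes fibromodulin, were below 0, from -0.54 (-0.028 from VEH-Sham 5, limma adjusted p = 0.046) to -0.077, so no direction is given for Fmod.

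Of 3 genes that mark fibroblasts themselves, 2 rose. Aldh1a2 was at 7.16, 7.04, 6.52 and 7.28 in VEH-Sham 1 to 4, 7.35 in VEH-Sham 5, 8.53, 8.11, 8.06, 7.55 and 7.67 in VEH-HI 6 to 10, and 7.70, 7.13, 7.41, 7.60 and 7.96 in EPO-HI 11 to 15. Every VEH-HI array exceeded every sham array. Aldh1a2 rose by 0.92 (SE 0.19, limma adjusted p = 0.00281, 1.89-fold). The Aldh1a2 difference from VEH-Sham 5 alone was 0.64. Slc6a13, a GABA and taurine transporter of meningeal fibroblasts, was at 6.09, 6.19, 6.14 and 6.00 in VEH-Sham 1 to 4, 6.84 in VEH-Sham 5, 7.05, 6.99, 6.30, 6.89 and 6.83 in VEH-HI 6 to 10, and 6.65, 6.19, 6.41, 6.60 and 6.58 in EPO-HI 11 to 15. VEH-Sham 5 was at the level of the VEH-HI arrays, and VEH-HI 8 was near VEH-Sham 1 to 4. Slc6a13 rose by 0.56 (SE 0.17, limma adjusted p = 0.0253), but its VEH-HI mean differed from VEH-Sham 5 by -0.033. Leaving out VEH-Sham 1, 2, 3 or 4, VEH-HI 6 or VEH-HI 7 ended the call (limma adjusted p 0.0514 to 0.0691).

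Pdgfra, a growth factor receptor shared by fibroblasts and oligodendrocyte precursors, was at 9.29, 9.20, 8.97 and 9.21 in VEH-Sham 1 to 4, 9.30 in VEH-Sham 5, 9.31, 9.35, 9.24, 9.16 and 9.24 in VEH-HI 6 to 10, and 9.31, 9.34, 9.30, 9.31 and 9.35 in EPO-HI 11 to 15. Its groups overlapped, with a difference of 0.064 (SE 0.081, limma adjusted p = 0.592, 95% interval -0.10 to 0.23) and of -0.047 from VEH-Sham 5. That interval is for the brightest probe set. Dimmer Pdgfra probe sets differed by -0.25 and -0.17 (-0.35 and 0.35 from VEH-Sham 5) and did not pass, so no direction is given for Pdgfra. Of 9 tested oligodendrocyte precursor markers, none rose and 1 fell, against 11.9% and 11.5% of all genes. The 1 that fell was C1ql1, by 0.69 (limma adjusted p = 0.00518, -0.28 from VEH-Sham 5).

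The following features come from the arrays that also gave the calls. For the members that rose or fell they therefore partly follow from being called, and the same shares among all genes that rose or fell were not computed. VEH-HI 6 was the highest VEH-HI array for 9 of the 9 members that rose. It was so for 25 of all 43 tested members (58.1%, against 24.6% of all genes tested). Groups did not overlap for 6 of the 43 members in the upward direction (14%, against 4.59% of all genes) and for 1, Col25a1, downward (2.33%, against 4.09%). All 5 VEH-HI arrays were above VEH-Sham 5 for 17 members (39.5%, against 17.2% of all genes), 8 of the 9 that rose among them, and below it for 4 (9.3%, against 15.2%). The VEH-HI mean was above VEH-Sham 5 for 31 members (72.1%, against 50.4%) and below it for 12 (27.9%, against 49.6%). The median rise of the 9 was 0.79, and 0.61 from VEH-Sham 5. For the 4 that fell the median was -0.57, and -0.076 from VEH-Sham 5, which was the lowest sham array for all 4. It was so for 37.2% of the 43 tested members and 32.1% of all genes tested.

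**Figure D3:**
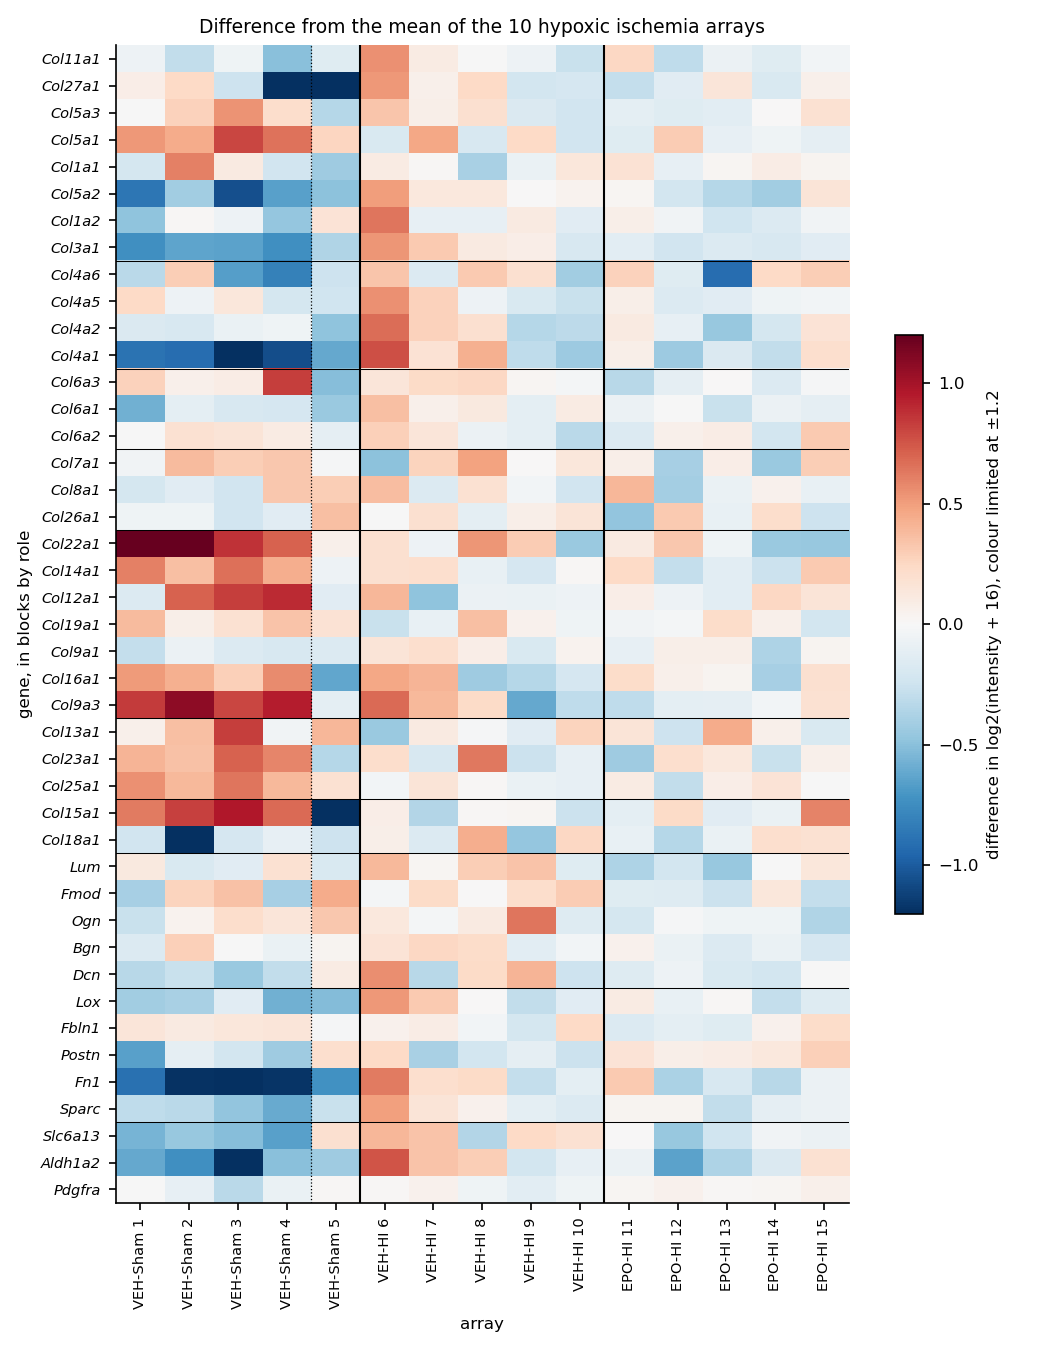
Each tested member in each array as the difference in log2(intensity + 16) from that gene's mean over the 10 hypoxic ischemia arrays, with genes in blocks by role and colour limited at 1.2 either way. Blue marks values below that mean. The VEH-HI 6 column is red for most members, and VEH-Sham 5, right of the dotted line, differs from VEH-Sham 1 to 4 for Col22a1, Col9a3 and Col15a1.

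Other genes of collagen biology were read from lists. Of all 13168 genes tested 11.9% rose and 11.5% fell, and the counts of every list are to be read beside these shares. Of 25 tested genes of collagen synthesis and processing, 7 rose and 1 fell, with a median difference of 0.027 and of 0.097 from VEH-Sham 5. Ppib, the cyclophilin that helps fold collagen in the endoplasmic reticulum, rose by 0.71 (limma adjusted p = 0.00119), but by 0.15 from VEH-Sham 5. Pcolce, which enhances the trimming of procollagen, rose by 0.79 (0.28 from VEH-Sham 5), and Plod3, a collagen lysyl hydroxylase, by 0.84 (0.59), with limma adjusted p = 0.00326 and 0.0061. Of 6 tested collagen receptors only Ddr1, a collagen-binding kinase, rose, by 0.87 (limma adjusted p = 0.000619, 0.50 from VEH-Sham 5).

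Among 12 laminins, nidogens and basement membrane proteoglycans, which surround type IV collagen, 2 rose and 2 fell. Lama4, the laminin chain of vessel walls, rose by 1.42 (limma adjusted p = 7.98e-05). The Lama4 difference from VEH-Sham 5 alone was 1.39. Lamb2 and Lamb3 fell by 0.53 and 0.71 (limma adjusted p = 0.0228 and 0.04), with -0.18 and -0.36 from VEH-Sham 5. Of 16 genes of TGF-beta signalling, a known inducer of collagen, 1 rose, Ltbp3 by 0.51 (limma adjusted p = 0.0444, 0.54 from VEH-Sham 5), and 1 fell, Ltbp4 by 0.71 (limma adjusted p = 0.0474, -0.47).

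Markers of cell types were read from further lists, again beside 11.9% of all genes higher and 11.5% lower. Of 21 tested other markers of meningeal and perivascular fibroblasts, 10 rose and 1 fell, with a median of 0.45 and of 0.21 from VEH-Sham 5. Ptgds, a prostaglandin synthase of the meninges, rose by 0.58 (0.12 from VEH-Sham 5), Cyp1b1 by 1.55 (0.50) and Igfbp2 by 0.51 (0.12), with limma adjusted p = 0.00151, 0.00552 and 0.00819. Their summed intensity was 9560 to 11160 in VEH-Sham 1 to 4, 13530 in VEH-Sham 5 and 14160 to 14830 in VEH-HI. Ptgds alone made up 42.4% to 54.4% of that sum in these arrays. The sum of the other 20 markers was 5511 to 6161 in VEH-Sham 1 to 4, 6714 in VEH-Sham 5 and 6468 to 7888 in VEH-HI. The part of fibroblast content in the members' differences was not tested.

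Of 12 endothelial markers 3 rose and 1 fell, against 11.9% and 11.5% of all genes (median 0.23, and 0.18 from VEH-Sham 5). Their summed intensity was 1673 to 1769 in VEH-Sham and 1623 to 2798 in VEH-HI. Of 9 pericyte and smooth muscle markers 1 rose and 1 fell (median 0.037, and 0.16 from VEH-Sham 5). Pecam1 rose by 1.40 (limma adjusted p = 0.00297), yet the difference from VEH-Sham 5 was 0.015, and Tagln, a smooth muscle protein, rose by 1.02 (0.92 from VEH-Sham 5, limma adjusted p = 0.00392). Of 11 microglia and macrophage markers 8 rose and none fell (median 0.67, and 0.73 from VEH-Sham 5), led by C1qc, at 1.33 (limma adjusted p = 7.88e-05, 1.17 from VEH-Sham 5). Of 10 forebrain neuron markers 5 fell and none rose (median -0.34, and -0.21 from VEH-Sham 5). Of 8 choroid plexus markers 2 rose and 1 fell (median 0.16, and -0.021 from VEH-Sham 5). Only 3 of 10 cartilage and bone markers were bright enough to be tested, and Acan among them fell by 0.56 (limma adjusted p = 0.0347, -0.15 from VEH-Sham 5). VEH-HI 6 had the highest summed intensity among VEH-HI arrays for 10 of these 12 lists, the exceptions being choroid plexus and neurons, and its neuron sum was the lowest, at 7666. The part of these cell types in the members' differences was not tested.

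Setting EPO-HI against VEH-HI addresses erythropoietin in injured forebrain, and both groups lie in array set B. No member passed in either direction (limma adjusted p under 0.05 in 0 of 43, against 0% of all 13168 genes). At an unadjusted limma p under 0.05, Col3a1, Lum, Aldh1a2 and Col5a2 were lower with erythropoietin (4 of 43 members, 9.3%, against 1.61% of all genes) and 0 members were higher (against 1.91%). Of the 43 differences 34 were below 0 (79.1%, against 51.9% of all genes), and 9 above (20.9%, against 48.1%), with a median of -0.13 against -0.0052. Without VEH-HI 6 the members' median was -0.055 and 33 differences were below 0. No member had groups that did not overlap, against 0.357% of all genes higher and 0.372% lower. In this comparison the smallest limma adjusted p over all probe sets was 0.138.

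Col3a1 varied less among the EPO-HI arrays than among the VEH-HI arrays. Its values ran from 8.90 to 9.00 in EPO-HI and from 8.94 to 9.66 in VEH-HI, and only VEH-HI 10 lay within the EPO-HI range. The difference was -0.34 (SE 0.11, 95% interval -0.57 to -0.10, limma unadjusted p = 0.00687, adjusted p = 0.9997). The dimmer Col3a1 probe set differed by -0.17 (limma unadjusted p = 0.235). Lum, which encodes the fibril-binding proteoglycan lumican, was at 6.98, 6.68, 6.73 and 7.04 in VEH-Sham 1 to 4, 6.68 in VEH-Sham 5, 7.25, 6.89, 7.16, 7.21 and 6.72 in VEH-HI 6 to 10, and 6.49, 6.64, 6.41, 6.86 and 7.00 in EPO-HI 11 to 15. The groups overlapped, with EPO-HI 13 the lowest array and VEH-HI 6 the highest. The difference in Lum was -0.36 (SE 0.14, 95% interval -0.66 to -0.068, limma unadjusted p = 0.0186).

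Aldh1a2 and Col5a2 differed by -0.43 (SE 0.19, limma unadjusted p = 0.0318) and -0.32 (SE 0.15, limma unadjusted p = 0.0383). For both genes EPO-HI 15 was the highest EPO-HI array, and EPO-HI 11 and EPO-HI 15 lay within the VEH-HI range. For Aldh1a2 EPO-HI 14 did so as well. Postn, a matrix protein of wound fibroblasts, lay on the other side of 0. It was at 6.56, 7.10, 6.99 and 6.79 in VEH-Sham 1 to 4, 7.41 in VEH-Sham 5, 7.45, 6.82, 6.99, 7.11 and 6.95 in VEH-HI 6 to 10, and 7.38, 7.28, 7.30, 7.33 and 7.50 in EPO-HI 11 to 15. VEH-HI 6 was within the EPO-HI range and the other VEH-HI arrays were below it. The Postn difference was 0.29 (SE 0.15, 95% interval -0.0075 to 0.60, limma unadjusted p = 0.0554). Ogn, which encodes the leucine-rich proteoglycan osteoglycin, was at 7.03, 7.34, 7.50 and 7.43 in VEH-Sham 1 to 4, 7.61 in VEH-Sham 5, 7.42, 7.27, 7.40, 7.93 and 7.14 in VEH-HI 6 to 10, and 7.08, 7.28, 7.24, 7.24 and 6.93 in EPO-HI 11 to 15. VEH-HI 9 was the highest of these arrays, and the difference was -0.28 (SE 0.14, limma unadjusted p = 0.0641).

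By role, the differences of the brightest probe sets with erythropoietin were below 0 for 5 of 5 small leucine-rich proteoglycans (median -0.28), 4 of 4 type IV chains (median -0.16), 7 of 8 fibrillar collagens (median -0.14) and 4 of 5 matrix glycoproteins and cross-linking genes (median -0.16). They were below 0 for 3 of 3 short-chain and anchoring collagens (median -0.12), 2 of 3 type VI chains (median -0.21), 2 of 3 fibroblast cell genes (median -0.32) and 5 of 7 fibril-associated collagens (median -0.048). Transmembrane collagens had 1 of 3 below 0 and multiplexins 1 of 2. Second probe sets of Col4a1 and Col4a6 were above 0, at 0.022 and 0.0087, and that of Col4a5 was at -0.14. Dimmer probe sets of Pdgfra were at -0.17 and -0.26, against 0.067 for its brightest. The 95% intervals of Col3a1, Lum, Aldh1a2 and Col5a2 lay below 0, and those of all other tested members included 0. These intervals are not adjusted for the number of genes. Fn1 differed by -0.27 (95% interval -0.59 to 0.058) and Col4a1 by -0.25 (-0.63 to 0.13) and both intervals include 0.

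**Figure D4:**
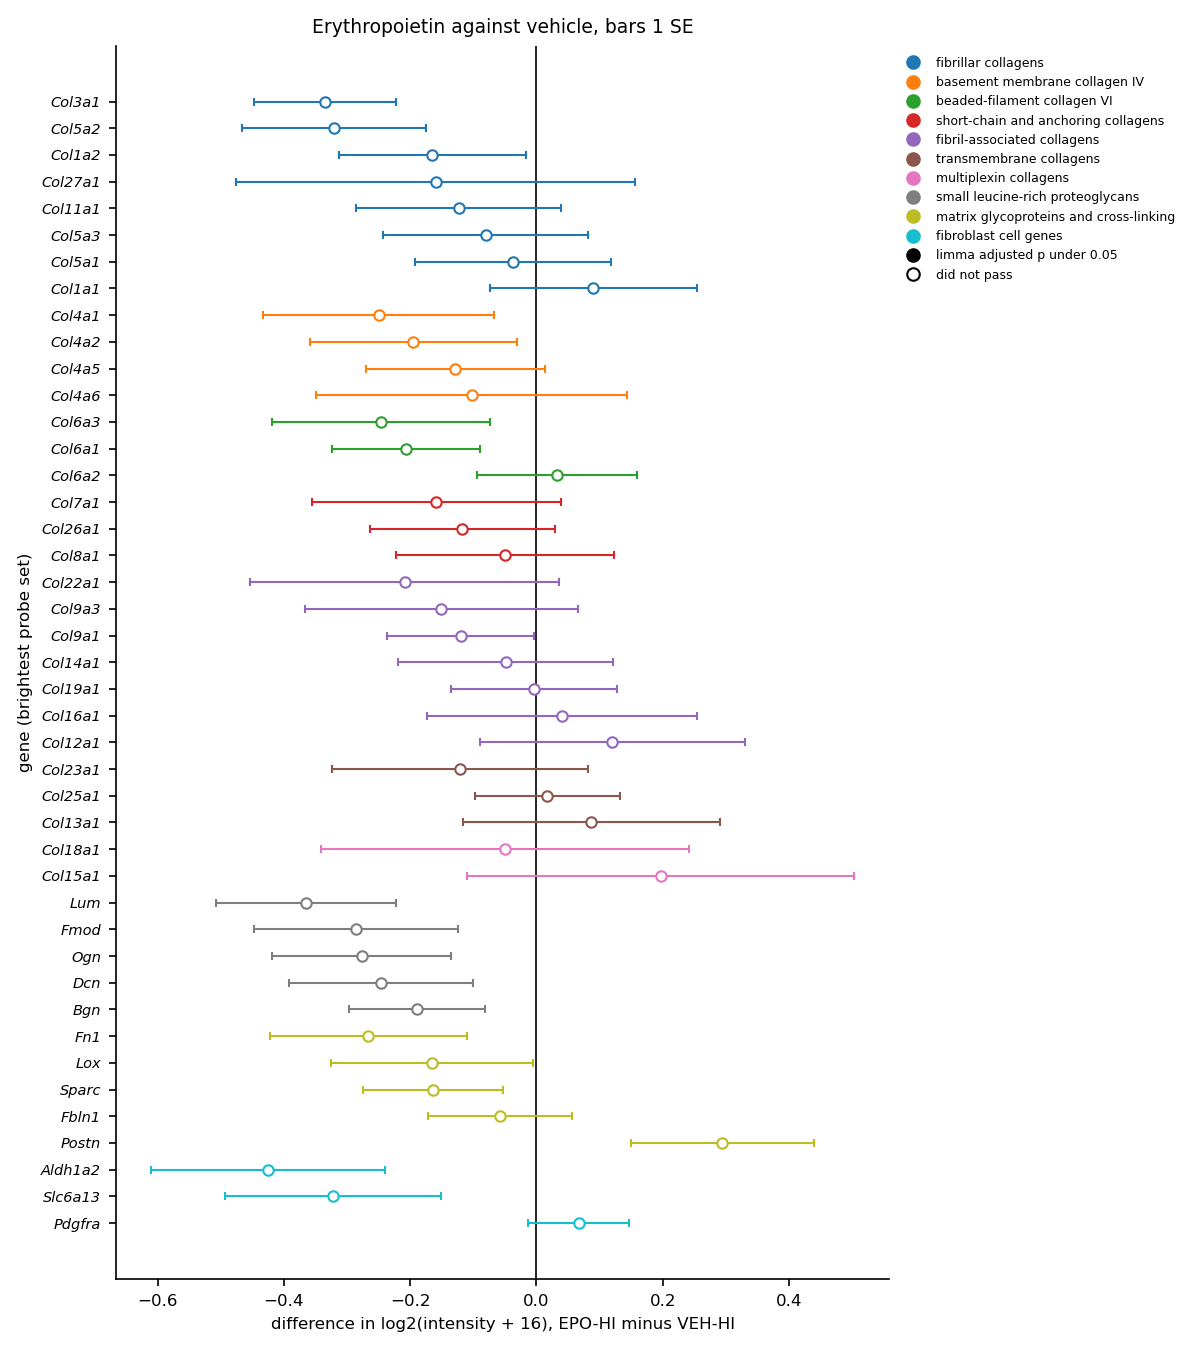
Difference in mean log2(intensity + 16), EPO-HI minus VEH-HI (n = 5 each), of the 43 tested members by role, with bars of 1 SE. All points are open because no member passed at a limma adjusted p under 0.05. Points lie left of 0 for 34 members, and Postn is the farthest to the right, at 0.29.

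Of the 21 other meningeal and perivascular fibroblast markers 18 were below 0 with erythropoietin (median -0.26) and none passed. Ptgds differed by -0.32 (limma unadjusted p = 0.00583). Their summed intensity was 11310 to 12430 in EPO-HI, below the range of 14160 to 14830 in VEH-HI. Ptgds was 5611 to 6318 of it in EPO-HI and 6942 to 7846 in VEH-HI. Without Ptgds the sums overlapped, at 5628 to 6569 in EPO-HI and 6468 to 7888 in VEH-HI. Endothelial markers were below 0 for 11 of 12 (median -0.11) and neuron markers above 0 for 8 of 10 (median 0.18). Pericyte and smooth muscle markers were below 0 for 7 of 9 (median -0.16) and choroid plexus markers for 7 of 8 (median -0.087). Microglia and macrophage markers were below 0 for 9 of 11 (median -0.084) and oligodendrocyte precursor markers for 5 of 9 (median -0.0054). Cartilage and bone markers were below 0 for 1 of 3. The lean below 0 was thus not particular to fibroblast and vessel lists. Of the basement membrane genes, Hspg2, which encodes perlecan, differed by -0.51 (limma unadjusted p = 0.000896). Collagen synthesis genes had a median of -0.022, with Pcolce at -0.34 (limma unadjusted p = 0.0512), and TGF-beta genes had a median of -0.14, with Tgfb2 at -0.32 (limma unadjusted p = 0.03). The part of cell content in these differences was not tested.

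The comparison of EPO-HI with VEH-Sham shares its sham arrays with the first comparison and its EPO-HI arrays with the second, so its values are given beside them without a test of likeness. Of the 43 members 4 rose (9.3%, against 8.86% of all genes) and 4 fell (9.3%, against 9.46%), which is near the background in both directions. At an unadjusted limma p under 0.05 there were 7 higher (16.3%, against 16.4%) and 5 lower (11.6%, against 18.1%), and 20 differences were above 0 (46.5%, against 48.1%) and 23 below (53.5%, against 51.9%). Fn1 rose by 0.91 (limma adjusted p = 0.00204, 0.60 from VEH-Sham 5) after 1.18 in VEH-HI, Col4a1 by 0.81 (limma adjusted p = 0.00695, 0.49) after 1.06, Col5a2 by 0.54 (limma adjusted p = 0.0169, 0.33) after 0.86, and Col3a1 by 0.45 (limma adjusted p = 0.0111, 0.19) after 0.79. These were the 4 members whose EPO-HI arrays were all above all sham arrays (9.3%, against 3.79% of all genes). Aldh1a2 and Sparc were at 0.49 and 0.31 and did not pass (limma adjusted p = 0.0669 and 0.0528), with 0.21 and 0.19 from VEH-Sham 5.

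The members that fell were Col22a1, Col9a3, Col5a1 and Col25a1, at -0.95, -0.78, -0.55 and -0.42 (limma adjusted p = 0.0135, 0.0189, 0.0205 and 0.0176). From VEH-Sham 5 alone they were at -0.17, 0.039, -0.27 and -0.18. Only Col25a1 had all EPO-HI arrays below all sham arrays (2.33% of members, against 3.63% of all genes). The number that fell was 2 without VEH-Sham 3 or VEH-Sham 4 and 8 without VEH-Sham 5, and the number that rose was 7 without VEH-Sham 5. Again no shares of all genes were computed with an array left out. Single calls were lost for Col5a2 and Col25a1 without VEH-Sham 3, Col25a1 also without EPO-HI 12, Col5a1 without VEH-Sham 3 or VEH-Sham 4, and Col9a3 without VEH-Sham 2 or VEH-Sham 4 (limma adjusted p 0.0513 to 0.0621). The mean of a gene's probe sets ended the calls of Col5a2, Col25a1 and Col9a3, equal array medians those of Col25a1 and Col5a1, and quantile normalization that of Col5a1. With equal array medians, which moved the median of all tested probe sets from -0.053 to 0.22, 13 members rose (30.2%, against 33.5% of all genes) and 2 fell (4.65%, against 2.92%). With quantile normalization 7 rose (16.3%, against 8.67%) and 3 fell (6.98%, against 6.95%). With the array set as a block 0 passed, against 0.00759% of all genes higher and 0% lower.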

How the data were processed

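Total RNA of mouse forebrain was measured on 15 arrays in 3 groups of 5. The authors deposited a table of linear intensities for each probe set. Its values show that they had scaled every array to a mean of 150.0 after trimming 2% of probe sets at each end, and the sources used here do not name the software. Column names matched samples for all 15 arrays, with 0 left over. Such scaling leaves differences in the shape of the distribution between arrays in place, as between array sets A and B.

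Gene symbols came from the platform's probe table. Of 45037 probe sets without controls, 34945 had 1 symbol, 932 several and 9160 none, and only the first were named. An update by gene number against the RefSeq table of GRCm38.p6 matched 34741 and changed 0 symbols.

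Intensities were converted to log2(intensity + 16) and the brightest 60% of probe sets (27022, mean of at least 5.46) were fitted in limma 3.58.1 under R 4.3.3 (lmFit, eBayes with trend), with 3 group means over all 15 arrays. Tests were two-sided, with Benjamini-Hochberg adjustment over all 27022 and a threshold of 0.05. Counts over genes use each gene's brightest tested probe set (13168 genes). On simulated data made from VEH-HI against VEH-Sham with 27022 probe sets, 28 of 100 changes of 0.5 and 80 of 100 changes of 1 on the log2 scale were recovered, with 10 false calls. The simulation held no difference between array sets A and B and changed far fewer probe sets than the 6174 called in the data. Its counts check the procedure and do not give the recovery or false calls of the real comparison. The number of arrays limits the precision. Arrays were divided into sets at the largest gap between their medians, 0.240 on the log2 scale, and no 2 arrays held identical values (0 pairs).

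All members could be named. Values by array are given for up to 12 that passed with the smallest p, the 6 with the smallest p for erythropoietin, the brightest of each role, and Col4a2 and Col27a1, added after their values were seen. Of each of the 12 other lists, up to 3 genes were named by p after hypoxic ischemia and 1 by p with erythropoietin. The members and lists were chosen with earlier results of these data known. Brain cells other than those a list names express many of its genes. Promoter windows were searched for fixed letters on both strands. Python 3.11.15 with matplotlib 3.10.9 drew the figures. Alternatives were other pseudocounts, filters, normalizations, variance settings, probe set choices, the array set as a block, set B alone and leaving out each array.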

Additional observations from a re-analysis of the deposited data

Results flagged for a closer look

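In 9 of 129 sets of 5 arrays (a member in a group), 1 array lay so far from the others that the gap exceeded 0.71 of the whole range. Chance alone gives about 1 in 20 such sets, or about 6 here. In VEH-Sham, VEH-Sham 5 was far below the other arrays for Col15a1 (4.30), Col16a1 (6.34), Col9a3 (7.47) and Fbln1 (7.01), and far above them for Col3a1 (8.77) and Slc6a13 (6.84). VEH-Sham 5 is the array that belongs to set B with the injured samples. VEH-Sham 2 was far below the other sham arrays for Col18a1 (4.43). VEH-HI 6 was far above the other VEH-HI arrays for Col5a2 (7.81), and EPO-HI 12 far above the other EPO-HI arrays for Col5a1 (6.70). All values are log2(intensity + 16).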

How the results depend on the processing

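For VEH-HI against VEH-Sham, 9 members rose and 4 fell. The number that rose was 17 with equal array medians, 0 with the array set as a block and 1 in set B arrays alone (Col27a1, against 0.0228% of all genes, with 1 sham array), and 6 to 10 when each array was left out in turn. The number that fell was 2 with quantile normalization, 0 with equal array medians, 2 with the arrays of the compared groups only, 0 with the block and 0 in set B alone, and 1 to 8 with an array left out. For EPO-HI against VEH-Sham, 4 rose and 4 fell. The number that rose was 7 with quantile normalization, 13 with equal medians, 0 with the block, 1 in set B (Col27a1, against 0.0152%) and 3 to 7 with an array left out. The number that fell was 7 without a filter, 2 with equal medians, 0 with the block, 0 in set B, 2 with the mean of a gene's probe sets and 2 to 8 with an array left out. For EPO-HI against VEH-HI, 0 members passed under any of these settings, and 34 lay below 0, or 30 to 36 with an array left out, a count added after the data were seen. The block and set B alone, which both rest on VEH-Sham 5, reversed Col22a1 (0.040), Col9a3 (0.19) and Slc6a13 (-0.033) for VEH-HI against VEH-Sham and Col9a3 (0.039) for EPO-HI against VEH-Sham. The cause of the other changes was not tested. Shares of all genes were computed only for the main fit, equal array medians, quantile normalization, the block and set B alone. Member counts under the remaining settings therefore describe the calls alone. The rises of Aldh1a2, Col3a1, Col4a1, Col5a2 and Fn1 in VEH-HI passed in the 9 settings other than the block and set B alone, and without any of the 15 arrays, but in neither of those (limma adjusted p 0.399 to 0.754 with the block). No paired analysis was possible because the replicate numbers run through the series and the groups share none. Array number and the dim signal of 12 members limit what could be seen.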
